A study of Mus musculus with 9 samples.

Results

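The chemokines and chemokine receptors were read from the liver arrays of this study as 64 probes for 53 genes. They were chosen by name alone. A probe was taken when its RefSeq accession belonged to a mouse gene whose symbol starts with Ccl, Cxcl, Ccr or Cxcr and a number, or is Cx3cl1, Cx3cr1, Xcl1 or Xcr1. The RefSeq table holds 63 such symbols, so 10 of them had no probe here, among them Cxcl11, Ccl27b and the Ccl21 genes. The arrays hold 55681 probes in all, of which 27656 could be named, giving 20972 genes.

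The study asked how insulin changes the liver of STAM mice, a non-obese diabetic model in which fatty liver inflammation is followed by fibrosis and liver cancer. Liver RNA was measured on one-colour Agilent arrays in 9 males, 20 weeks old, 1 array per mouse and 3 mice per group. STAM-NON and STAM-INS mice both received streptozotocin, a toxin of the insulin-secreting beta cells, as newborns of the strain written C57B/6 J in the methods, and both were then fed a high-fat diet. STAM-INS mice were also injected subcutaneously with insulin glargine, a long-acting insulin, until they were sampled, while STAM-NON mice had no treatment. Normal mice were labelled as the normal model, and mice outside the STAM and obese groups ate the standard chow CE-2. No transgene or Cre is involved. STAM-NON mice differ from Normal mice in both streptozotocin and diet, so the comparison with Normal joins the pair. Whether the pieces of liver held tumour is not given in the sources used here.

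Chemokines are small secreted proteins that guide leukocytes along a gradient and act through receptors coupled to G proteins. They are named for the spacing of their first cysteines as CC, CXC, CX3C or XC, and the receptors carry the matching name. In the liver, Kupffer cells, stellate cells, sinusoidal endothelium, bile duct cells and hepatocytes can all release them, and monocytes, neutrophils and lymphocytes carry most of the receptors. Several ligands share a receptor, and one ligand can act on several receptors.

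Values are log2 of the background-subtracted intensity less the array's own 75th percentile, called centred log2 intensity below, so that 0 is the brightness of the spot at that percentile. Each probe has its own brightness, and values are therefore compared between groups and not between genes. A gene was tested when a probe of it was well above background, by the scanner software's flag, on all 3 arrays of at least 1 group. Arrays of 1 group correlated with r from 0.979 to 0.991 over the tested probes. The 6 STAM arrays lay on 1 slide and in 1 scan, and the 3 Normal arrays on another slide and in another scan, so slide and group cannot be told apart in any comparison with Normal. The share of all spots above background was 59.3% in STAM-NON replicate 1, 63.1% in STAM-NON replicate 3 and 65% in STAM-INS replicate 1, against 46.2 to 51.1% on the other 6 arrays. Hepatocyte markers were bright on all 9 arrays, with a mean centred log2 intensity of 8.14 to 8.70 over 10 of 10 markers.

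Of the 53 genes, 21 were above background on all 9 arrays, 20 on some of them and 12 on none. The 12 genes not above background on any array were the ligands Ccl1, Ccl20, Ccl22, Ccl26, Cxcl2, Cxcl3, Cxcl15 and Cxcl17 and the receptors Ccr1, Ccr1l1, Ccr4 and Xcr1. Ccl20 is the ligand of Ccr6, and Ccl22 that of Ccr4. Another 15 genes were above background on at least 1 array but not on all 3 of any group, and were not tested. They were Ccl11, Ccl12, Ccl17, Ccl28, Cxcl5, Xcl1, Ccr3, Ccr6, Ccr8, Ccr9, Ccr10, Cxcr1, Cxcr2, Cxcr4 and Cxcr5. Of this set, Cxcr2, the receptor through which neutrophils answer CXC ligands, was above background on 2 STAM-NON, 2 STAM-INS and 0 Normal arrays, and so were Ccr3, the receptor of eosinophils, and Ccr6. By array, the number of the 53 genes above background was 22, 25 and 29 in Normal against 37, 24 and 36 in STAM-NON and 39, 28 and 30 in STAM-INS. The 3 arrays with over 35 such genes were the 3 with the most spots above background of all kinds, and the part of that in the counts was not tested.

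**Figure D1:**
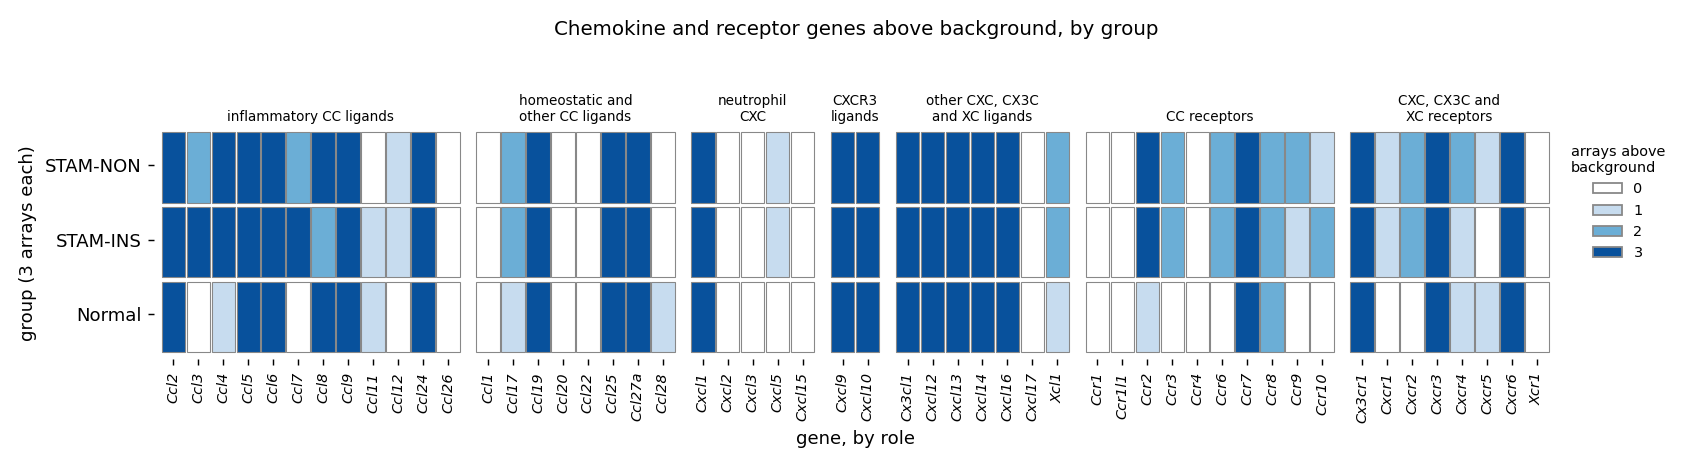
Each column is one of 52 of the genes, grouped by role, and each row is a group of 3 arrays, with the shade giving on how many of them any probe of the gene was above background. The darkest columns in all 3 rows are the 20 genes seen on all 9 arrays, and the 12 white columns are the genes seen on none. Empty in Normal only are the tested genes Ccl3 and Ccl7 and the untested genes Ccl12, Cxcl5, Ccr3, Ccr6, Ccr9, Ccr10, Cxcr1 and Cxcr2.

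The remaining 26 genes, with 35 tested probes, were compared between the groups. For a gene with several tested probes the one with the highest mean stands for it. STAM-NON and Normal were compared to ask which of them differ in the untreated model. Between STAM-NON and Normal, 9 of the 26 genes passed the threshold of a limma adjusted p under 0.05, and all 9 were higher in STAM-NON. Among them were the ligands Ccl2, Ccl4, Ccl5, Ccl7, Ccl19, Cxcl9 and Cx3cl1 and the receptor Cx3cr1. Over all 13386 tested genes 16.8% passed, with 7.87% higher and 8.93% lower, against 34.6% of the members higher and 0 lower (2 members, Ccl9 and Ccl27a, were lower at an unadjusted p under 0.05). The median difference was 1.22 on the log2 scale over the 26 members and -0.11 over all genes. Ccl3, Ccl4, Ccl7 and Ccr2 passed the filter only through STAM arrays, so a low level in Normal was part of how they came to be tested, and without them 7 of 22 genes passed. A fit on only the probes above background on all Normal arrays was chosen after seeing the data. There 8 of the 22 passed, all higher, and of all 23942 probes 1253 were higher and 2868 lower. In whole liver RNA, more cells of a type and more RNA per cell cannot be told apart.

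The count of 9 depended on single arrays. It was 4, 3 and 2 without Normal replicates 1, 2 and 3, 5 without STAM-NON replicate 1 or replicate 3 and 16 without STAM-NON replicate 2. Ccl5 and Ccl7 passed with each of the 9 arrays left out in turn, Cx3cr1 in 8, Ccl19 in 7 and Ccl4 in 6. Ccl4 and Ccl7 came to be tested through the STAM arrays only, and the filter was not redone for these fits. How often those 2 passed is therefore no support for them. Ccl2 and Cxcl9 passed in 3 of the 9 and Cx3cl1 in 1, without STAM-NON replicate 2. With STAM-NON replicates 1 and 3 and STAM-INS replicate 1 all left out, an alternative chosen after seeing the data, Ccl5 alone passed. Under every rescaling of the arrays that was run, the members called higher in STAM-NON numbered 9 to 12, and the 1 member called lower was Ccl27a after normexp background correction. Cx3cl1 lost its call under 4 of the 5 rescalings and Cxcl1 gained one under all 5. Normexp also took the median difference of the members from 1.22 to 0.57. The split of all called probes moved more, from 1655 higher and 2565 lower to 2733 and 453 with arrays centred on E1A spike-in controls, to 2080 and 1064 with the percentile taken over probes above background on all arrays, to 1538 and 1428 with quantile normalization and to 1313 and 3387 after normexp. With no filter on dim probes no member passed, nor did any with the row of the slide as a block, though in that fit the rows separate STAM-NON from Normal, with 1 row for each.

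**Figure D2:**
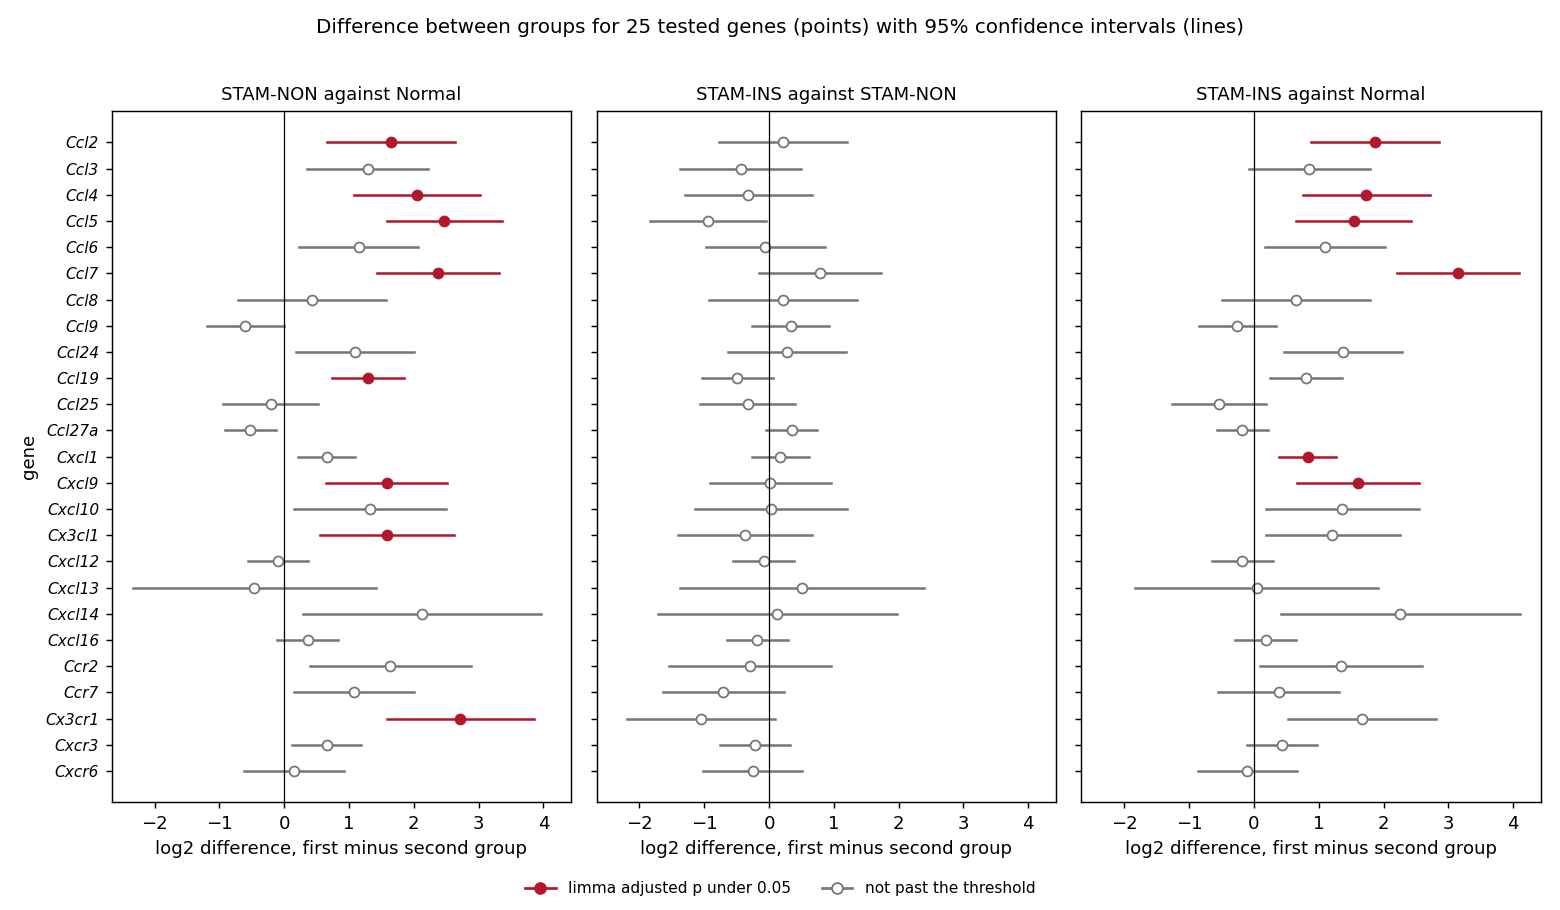
Points are the log2 differences of 25 of the tested genes in the 3 comparisons, lines are 95% confidence intervals, and filled red points passed the limma adjusted threshold. The left panel holds 8 red points and the right panel 6, all to the right of 0, and the middle panel, STAM-INS against STAM-NON, holds none.

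The inflammatory CC ligands draw monocytes, T cells and eosinophils, and 4 of the 9 tested passed between STAM-NON and Normal, all higher, against 7.87% of all tested genes. Of these 4, Ccl4 and Ccl7 came to be tested through the STAM arrays only. Ccl2 is the main attractant of Ccr2-bearing monocytes. Ccl2 had centred log2 intensities of 0.75, -0.53 and -0.71 in STAM-NON, 0.73, -0.15 and -0.42 in STAM-INS and -2.20, -1.52 and -1.71 in Normal. All 6 STAM arrays lay above all Normal arrays, and STAM-NON and STAM-INS overlapped. Relative to Normal, Ccl2 rose by 1.65 in STAM-NON, or 3.13-fold (SE 0.43, limma adjusted p 0.0381), and by 1.87 in STAM-INS, or 3.65-fold (limma adjusted p 0.0281).

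Ccl7 is a ligand of Ccr2 next to Ccl2 on chromosome 11. The Ccl7 probe read -2.81, -3.69 and -2.62 in STAM-NON, -1.81, -2.35 and -2.63 in STAM-INS and -5.58, -4.62 and -6.03 in Normal. It was not above background on any Normal array and on 2 of the 3 STAM-NON arrays, so that the Normal values only bound its level. Against Normal, STAM-NON had at least 1.81-fold higher Ccl7 and STAM-INS at least 3.11-fold higher Ccl7. The measured differences, which the test used, were 2.37 (limma adjusted p 0.014) and 3.15 (limma adjusted p 0.00429). Of the other genes of that stretch, in the RefSeq order Ccl2, Ccl7, Ccl11, Ccl12, Ccl8 and Ccl1, Ccl1 was above background on no array, Ccl11 and Ccl12 were on 2 each, and Ccl8 did not pass. Ccl8, another Ccr2 ligand, read -3.29, -2.30 and -2.26 in STAM-NON, -1.33, -3.47 and -2.39 in STAM-INS and -3.03, -2.87 and -3.24 in Normal with the groups overlapping throughout, and its difference between STAM-NON and Normal was 0.43 (95% confidence interval -0.71 to 1.57).

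Ccl3, Ccl4 and Ccl5 are ligands that attract T cells, macrophages and NK cells. Ccl5 stood at 2.31, 2.62 and 3.52 in STAM-NON, 2.61, 1.46 and 1.57 in STAM-INS and 0.04, 0.31 and 0.69 in Normal. No Normal array reached a STAM array, and STAM-INS replicate 1 lay inside the STAM-NON range while the other STAM-INS arrays lay below it. Ccl5 was 5.55-fold higher in STAM-NON than in Normal (difference 2.47, SE 0.39, limma adjusted p 0.011) and 2.9-fold higher in STAM-INS (difference 1.54, limma adjusted p 0.0364).

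Ccl4 had values of -0.68, -2.27 and -1.74 in STAM-NON, -1.16, -2.41 and -2.07 in STAM-INS and -3.65, -3.74 and -3.45 in Normal. Only 1 of the 3 Normal arrays was above background, and all 6 STAM arrays exceeded Normal. The difference was 2.05 for STAM-NON (SE 0.43, limma adjusted p 0.0211) and 1.73 for STAM-INS (limma adjusted p 0.0335). Ccl3 gave -2.08, -3.72 and -2.14 in STAM-NON, -2.70, -3.12 and -3.42 in STAM-INS and -3.87, -3.98 and -3.94 in Normal. It was above background on 2 STAM-NON arrays, 3 STAM-INS arrays and no Normal array. The bound on Ccl3 was at least 2.3-fold for STAM-NON over Normal and at least 1.7-fold for STAM-INS. It is a ratio of means that leaves out the spread between arrays, so smaller differences are not excluded. The measured differences of 1.29 and 0.85 did not pass (limma adjusted p 0.0638 and 0.187). Ccl5, Ccl9, Ccl6, Ccl3 and Ccl4 follow each other on chromosome 11, and the 5 genes of this stretch did not all lie on 1 side of 0.

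Ccl6, a rodent chemokine of macrophages, read 2.65, 2.26 and 3.53 in STAM-NON, 2.05, 3.51 and 2.71 in STAM-INS and 1.69, 1.52 and 1.78 in Normal. The STAM arrays lay above the Normal arrays, with a difference of 1.15 for STAM-NON that missed the threshold (limma adjusted p 0.0832). Its neighbour Ccl9 read 3.04, 3.88 and 3.84 in STAM-NON, 4.12, 4.03 and 3.61 in STAM-INS and 4.03, 4.50 and 4.0 in Normal. Here STAM-NON lay below Normal without overlap, by -0.60 (95% confidence interval -1.19 to 0.0; limma adjusted p 0.139). For Ccl24, which attracts eosinophils through Ccr3, the values were 1.17, 0.09 and 0.89 in STAM-NON, 0.52, 1.60 and 0.87 in STAM-INS and -0.97, -0.33 and 0.17 in Normal. The differences from Normal were 1.09 in STAM-NON and 1.37 in STAM-INS, with limma adjusted p of 0.0891 and 0.0531. Its receptor Ccr3 averaged -5.04 in Normal against -3.95 in STAM-NON and -3.33 in STAM-INS, and was not tested.

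**Figure D3:**
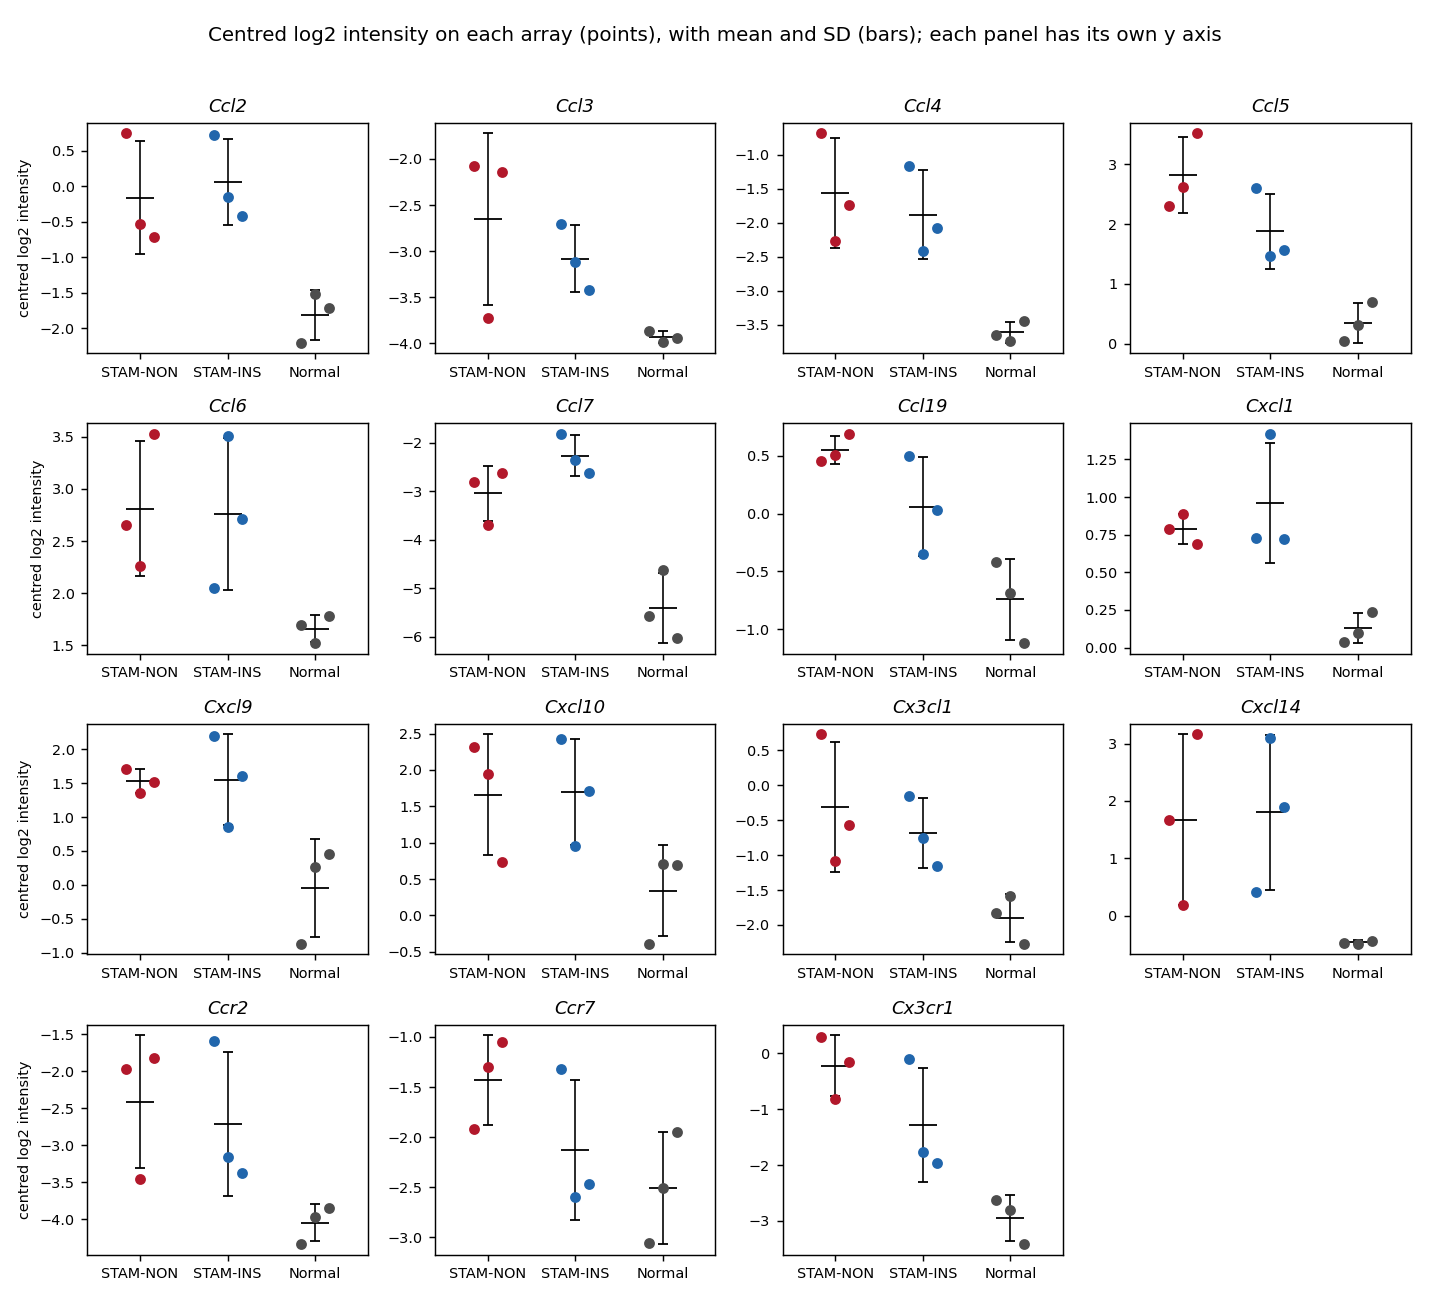
Each panel shows one of 15 genes that passed in a comparison, or differed over 2-fold without overlap between STAM-NON and Normal, with a point per array, a bar at the group mean and whiskers of 1 SD (n = 3). In every panel the 3 STAM-NON points lie above the 3 Normal points, while STAM-NON and STAM-INS points share a range. For the genes that did not pass, lack of overlap was a condition of being shown. Under 2-fold and so not shown, Ccl9 and Ccl27a lay below Normal without overlap in STAM-NON, and Cxcr3 above. The share of all tested genes without overlap was not counted.

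The CXC ligands that attract neutrophils were represented by Cxcl1 alone, since Cxcl2, Cxcl3 and Cxcl15 were on no array above background and Cxcl5 on 2. Cxcl1 read 0.79, 0.89 and 0.69 in STAM-NON, 0.73, 1.42 and 0.72 in STAM-INS and 0.04, 0.10 and 0.24 in Normal. Every STAM array was above every Normal array. The difference was 0.66 in STAM-NON, just short of the threshold (limma adjusted p 0.0509), and 0.83 in STAM-INS, past it (SE 0.19, limma adjusted p 0.0285). Of the receptors, Cxcr2 averaged -4.85 in Normal against -2.96 in STAM-NON and -3.01 in STAM-INS, and was not tested.

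Cxcl9 and Cxcl10 are induced by interferons and attract T cells through Cxcr3. Cxcl9 stood at 1.71, 1.36 and 1.52 in STAM-NON, 2.19, 0.85 and 1.61 in STAM-INS and -0.87, 0.26 and 0.46 in Normal. The 6 STAM arrays lay above the Normal arrays, and Cxcl9 was 2.99-fold higher in STAM-NON (difference 1.58, SE 0.41, limma adjusted p 0.0366) and 3.04-fold in STAM-INS (difference 1.60, limma adjusted p 0.0372). The second Cxcl9 probe differed by 1.17 and 1.41, with limma adjusted p of 0.0756 and 0.0495. Cxcl10 read 2.32, 1.94 and 0.73 in STAM-NON, 2.42, 0.96 and 1.71 in STAM-INS and -0.39, 0.71 and 0.69 in Normal. STAM-NON replicate 3, at 0.73, lay barely above 2 of the Normal arrays. Neither Cxcl10 difference from Normal, 1.33 in STAM-NON and 1.36 in STAM-INS, passed (limma adjusted p 0.105 and 0.108). Their receptor Cxcr3 read -1.86, -1.76 and -1.02 in STAM-NON, -1.64, -1.91 and -1.73 in STAM-INS and -2.35, -2.36 and -1.89 in Normal, with a difference of 0.66 between STAM-NON and Normal (limma adjusted p 0.0877).

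The ligand genes Cxcl1, Cxcl2, Cxcl3, Cxcl9 and Cxcl10 lie on chromosome 5 and are known targets of NF-κB. The 250 bases before their annotated starts are therefore shown, from RefSeq (build GRCm38.p6). Such windows were at hand for 39 of the 53 members and for 5 of the 10 that passed in any comparison. Capitals mark matches to the κB consensus, searched on both strands, and each sequence runs 5′ to 3′ towards the start of its gene. Cxcl1, Cxcl2 and Cxcl3 are shown because they share a match but not a level on these arrays, and Cxcl9 and Cxcl10 because they are neighbours with the same receptor.
Cxcl1 (plus strand, chr5:90890995-90891244): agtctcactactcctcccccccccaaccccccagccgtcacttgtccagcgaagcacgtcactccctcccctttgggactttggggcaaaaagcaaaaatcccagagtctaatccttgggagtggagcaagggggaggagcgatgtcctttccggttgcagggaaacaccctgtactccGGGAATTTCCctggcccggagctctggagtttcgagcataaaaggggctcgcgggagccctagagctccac
Cxcl2 (plus strand, chr5:90903649-90903898): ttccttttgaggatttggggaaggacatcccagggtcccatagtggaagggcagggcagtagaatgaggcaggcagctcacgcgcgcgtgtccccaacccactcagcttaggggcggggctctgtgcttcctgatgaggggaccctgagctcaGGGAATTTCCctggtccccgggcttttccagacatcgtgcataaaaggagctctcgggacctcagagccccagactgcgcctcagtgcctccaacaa
Cxcl3 (plus strand, chr5:90785851-90786100): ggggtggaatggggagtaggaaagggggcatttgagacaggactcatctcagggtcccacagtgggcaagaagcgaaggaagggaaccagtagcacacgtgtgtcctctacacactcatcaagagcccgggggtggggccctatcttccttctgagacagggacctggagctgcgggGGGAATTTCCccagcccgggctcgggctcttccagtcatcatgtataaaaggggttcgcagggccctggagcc
Cxcl9 (minus strand, chr5:92328080-92328329): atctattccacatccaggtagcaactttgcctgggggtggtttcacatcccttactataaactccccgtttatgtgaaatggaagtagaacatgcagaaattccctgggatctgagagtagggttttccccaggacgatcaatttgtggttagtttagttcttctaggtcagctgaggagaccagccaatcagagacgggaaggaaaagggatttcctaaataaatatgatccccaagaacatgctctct
Cxcl10 (minus strand, chr5:92348890-92349139): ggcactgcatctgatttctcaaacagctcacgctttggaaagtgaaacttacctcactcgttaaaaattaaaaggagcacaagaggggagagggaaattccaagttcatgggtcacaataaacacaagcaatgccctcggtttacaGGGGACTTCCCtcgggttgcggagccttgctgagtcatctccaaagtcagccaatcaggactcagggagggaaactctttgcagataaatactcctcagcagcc

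The same 10 letters, GGGAATTTCC, matched the κB consensus in all 3 of Cxcl1, Cxcl2 and Cxcl3, beginning 71, 97 and 73 bases before the start. Of these, Cxcl1 was above background on 9 arrays and the other 2 genes on none. Cxcl10 held 2 matches that overlap, together GGGGACTTCCC, and Cxcl9 held none in this window. The consensus was found in 8 of the 39 member windows and in 3 of the 18 windows of tested members, against 4.79% of 27018 windows of all genes. The core of the interferon-stimulated response element, which is GAAA repeated with 2 bases between, was in 3 member windows, those of Ccl19, Cxcl10 and Cxcl14, against 3.04% of all. The letters TATAAA were in 11 of the 39 windows, against 13% of all. A match gives letters only and was not tied to the values.

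Ccl19 is a ligand of Ccr7, which brings T cells and dendritic cells to lymphoid tissue. Ccl19 read 0.45, 0.51 and 0.69 in STAM-NON, 0.50, -0.35 and 0.03 in STAM-INS and -0.42, -0.69 and -1.12 in Normal. STAM-NON lay above Normal without overlap, and STAM-INS replicate 1 lay within the STAM-NON range. Ccl19 was 2.45-fold higher in STAM-NON than in Normal (difference 1.29, SE 0.24, limma adjusted p 0.0163) and differed by 0.81 in STAM-INS (limma adjusted p 0.0597). The other Ccl19 probes differed by 0.75 and 0.64 between STAM-NON and Normal and did not pass (limma adjusted p 0.0522 and 0.0727). Pseudogenes of Ccl19 are listed in the RefSeq table, and signal from them cannot be told apart here.

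Cx3cl1, or fractalkine, is tethered to the membrane of endothelial and epithelial cells, and Cx3cr1 is its receptor on monocytes and some macrophages. Cx3cl1 had values of 0.73, -1.08 and -0.57 in STAM-NON, -0.15, -0.75 and -1.15 in STAM-INS and -1.83, -1.58 and -2.27 in Normal. The STAM arrays exceeded the Normal arrays, and the difference of 1.59 for STAM-NON passed narrowly (SE 0.45, limma adjusted p 0.0479) while that of 1.21 for STAM-INS did not (limma adjusted p 0.105). Cx3cr1 read 0.29, -0.81 and -0.15 in STAM-NON, -0.10, -1.76 and -1.96 in STAM-INS and -2.63, -2.80 and -3.42 in Normal. With 6.61-fold, Cx3cr1 had the largest difference between STAM-NON and Normal among the 22 genes above background on all 3 Normal arrays (difference 2.72, SE 0.50, limma adjusted p 0.0155). Its second tested probe differed by 2.38 (limma adjusted p 0.0341). In STAM-INS, replicate 1 lay inside the STAM-NON range and replicates 2 and 3 lay between STAM-NON and Normal, and the difference of 1.67 from Normal did not pass (limma adjusted p 0.0582).

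Cxcl14, a chemokine of epithelial cells and fibroblasts, read 1.66, 0.19 and 3.16 in STAM-NON, 0.41, 3.10 and 1.89 in STAM-INS and -0.47, -0.49 and -0.44 in Normal. The 3 Normal arrays lay between -0.49 and -0.44, and the STAM arrays were spread from 0.19 to 3.16, all of them higher. The differences of 2.13 and 2.26 from Normal therefore carried an SE of 0.80 and did not pass (limma adjusted p 0.0985 and 0.0933).

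Cxcl12, the ligand of Cxcr4 that holds leukocytes and stem cells in place, showed no such pattern. Cxcl12 read 6.09, 6.62 and 6.70 in STAM-NON, 6.38, 6.24 and 6.55 in STAM-INS and 6.75, 6.24 and 6.71 in Normal, with all groups overlapping. The difference between STAM-NON and Normal was -0.10, with a 95% confidence interval of -0.56 to 0.37. Cxcl16, the ligand of Cxcr6, read 0.48, -0.25 and 0.53 in STAM-NON, 0.0, 0.24 and -0.02 in STAM-INS and -0.14, -0.10 and -0.07 in Normal. Cxcr6, found on NK cells and resident T cells, read -1.36, -0.54 and -0.31 in STAM-NON, -0.69, -1.55 and -0.73 in STAM-INS and -1.18, -0.96 and -0.51 in Normal. For Cxcl16 the difference between STAM-NON and Normal was 0.36 (95% confidence interval -0.11 to 0.83) and for Cxcr6 it was 0.15 (95% confidence interval -0.62 to 0.92).

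Cxcl13, the B cell attractant, read -1.27, -0.85 and -0.89 in STAM-NON, -2.60, 1.0 and 0.11 in STAM-INS and 0.34, -1.24 and -0.72 in Normal. STAM-INS alone ran from -2.60 to 1.0, and the interval of its difference from STAM-NON ran from -1.37 to 2.39. Ccl25, a ligand of Ccr9, read 1.68, 2.28 and 0.86 in STAM-NON, 1.14, 1.1 and 1.60 in STAM-INS and 1.89, 1.76 and 1.81 in Normal, and -0.21 separated STAM-NON from Normal (limma adjusted p 0.656). Ccl27a, a skin chemokine, read 2.11, 2.55 and 2.33 in STAM-NON, 2.82, 2.43 and 2.81 in STAM-INS and 3.02, 2.64 and 2.93 in Normal. Ccl27a was lower in STAM-NON than in Normal without overlap, by -0.53, short of the threshold (limma adjusted p 0.0682). A second Ccl27a probe differed by -0.54 and the third by 0.24, and the near-identical Ccl27b had no probe, so signal of the copies cannot be told apart.

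Ccr2 and Ccr7 were among the CC receptors tested. Ccr2, the receptor of inflammatory monocytes, gave -1.97, -3.45 and -1.82 in STAM-NON, -1.59, -3.16 and -3.38 in STAM-INS and -4.34, -3.97 and -3.85 in Normal. It was above background on 1 Normal array and on all 6 STAM arrays. STAM-NON replicates 1 and 3 and STAM-INS replicate 1 stood apart at -1.97, -1.82 and -1.59, while the other 3 STAM arrays were at -3.16 to -3.45, nearer to Normal. The differences of 1.64 and 1.34 from Normal did not pass (limma adjusted p 0.0717 and 0.129). Ccr7 read -1.92, -1.30 and -1.05 in STAM-NON, -1.32, -2.60 and -2.47 in STAM-INS and -3.06, -2.51 and -1.95 in Normal. STAM-NON was above Normal without overlap and STAM-INS overlapped both, with a difference of 1.08 between STAM-NON and Normal (limma adjusted p 0.0989).

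STAM-INS and STAM-NON were compared to ask what insulin changed. None of the 26 genes passed (limma, 0 at an adjusted p under 0.05), against 0.0822% of all tested genes. At an unadjusted p under 0.05 there was 1, Ccl5, and by the methods' t-test there was none. Ccl5 differed by -0.94 (95% confidence interval -1.83 to -0.05; limma adjusted p 0.552), and Cx3cr1 by -1.05 (95% confidence interval -2.19 to 0.09; limma adjusted p 0.587). The groups of no named gene were apart, since at least 1 STAM-INS array lay in the STAM-NON range or the reverse. The interval of Cx3cr1 held 0, and so did those of Ccl2, Ccl7 and Cxcl9. That of Ccl2 ran from -0.77 to 1.21, that of Ccl7 from -0.16 to 1.72 and that of Cxcl9 from -0.91 to 0.95. The intervals of Ccl2 and Ccl7 reach past 1, which is 2-fold, so the arrays do not show that the groups were alike. The median difference was -0.11 over the members and 0.03 over all genes, with 11 members above 0 and 15 below.

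The STAM-INS arrays were not alike among themselves. STAM-INS replicate 1 was the highest of its group in 17 of the 26 members and in 29.2% of all tested genes. It lay in row 1 of the slide with the STAM-NON arrays, and STAM-INS replicates 2 and 3 lay in row 2. Slide row and mouse therefore cannot be told apart in what sets STAM-INS replicate 1 off. In STAM-NON, replicate 2 was the lowest in 12 of 26 members, against 23.4% of all tested genes, and replicate 3 was the highest in 12, against 27.2%. Without STAM-INS replicate 1, Ccl5 differed by -1.30 and Cx3cr1 by -1.64 between STAM-INS and STAM-NON, and still no member passed.

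Between STAM-INS and Normal, 6 of the 26 genes passed and all were higher in STAM-INS, namely Ccl2, Ccl4, Ccl5, Ccl7, Cxcl1 and Cxcl9. Over all tested genes 13.6% passed, 6.15% higher and 7.49% lower. Of the members 23.1% were higher and 0 lower (0 also at an unadjusted p under 0.05), and the median difference was 0.97 against -0.07 over all genes. Ccl4 and Ccl7 were tested through the STAM arrays only, and among the 22 members above background on all 3 Normal arrays 4 passed. In the fit on only the probes above background on all Normal arrays, 6 of the 22 passed, all higher. Of all 23942 probes in that fit, 1054 were higher and 2495 lower. This comparison and that of STAM-NON with Normal use the same 3 Normal arrays, so that they are not independent of each other. The count of 6 among the 26 genes fell to 1 without any one of Normal replicates 1, 2 and 3, to 2 without STAM-INS replicate 1 and to 3 without STAM-INS replicate 2 or replicate 3. With each of the 9 arrays left out in turn, Cxcl1 passed in 6, Ccl2 and Cxcl9 in 4 and Ccl5 in 3. None of these 4 passed without any one of the Normal replicates. The 9 arrays include those of STAM-NON, which enter this comparison only through the shared estimate of the spread. All called probes split into 1356 higher and 2294 lower, and into 1501 and 710 with arrays centred on the E1A spike-in controls or 1679 and 1298 with the percentile over probes above background, while the members called were all higher under each of these.

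In STAM-NON against Normal, 7.87% of all tested genes were higher and 8.93% lower, with a median difference of -0.11. Related genes outside the name rule gave 3 of 6 higher, with a median of 1.54. They were Ackr1 (1.30) and Ackr2 (1.77), receptors that bind chemokines without signalling to G proteins, and Pf4 (2.26), the platelet factor of the CXC family, with limma adjusted p of 0.0159, 0.0242 and 0.0357. Of the genes through which chemokine receptors signal, 11 of 24 were higher and 0 lower, and the median difference was 0.68. The largest of the 11 were Grk3, a kinase that switches off active receptors (2.40), Dock2, which drives leukocyte movement (1.71), its partner Elmo1 (1.67) and the G protein subunit Gng2 (1.53), with limma adjusted p from 0.0146 to 0.0298. Of the leukocyte adhesion genes, 6 of 19 were higher and 1 lower, with a median of 0.63. Higher were Itgax (1.77), Itga4 (1.55), Selplg (1.44), Vcam1 (1.43), Itgb2 and Icam1, with limma adjusted p from 0.0234 to 0.0480, and lower was Madcam1, an adhesion molecule of gut vessels, at -1.27 (limma adjusted p 0.0149). The last list joins cytokines and transcription factors that induce chemokines with inhibitors of NF-κB, and 4 of its 11 tested genes were higher. They were Tnfaip3 (1.24), Irf7 (1.20), Relb (0.93) and Nfkbie (0.61), with limma adjusted p from 0.0129 to 0.0310 and a median of 0.39 over the 11. Relb is a subunit of NF-κB and Irf7 a factor of the interferon response, while Tnfaip3 and Nfkbie restrain NF-κB and are themselves induced by it. Tnf, Il6, Ifng, Il1a, Il17a, Il4, Il13, Lta and Rel were not tested because they were not above background on all arrays of any group. Between STAM-INS and STAM-NON no gene of these 4 lists passed, and at an unadjusted p under 0.05 there were Itgam, Jam3 and Rela.

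Markers of cells that carry or release chemokines were read on the same arrays. In STAM-NON against Normal, where 7.87% of all tested genes were higher and 8.93% lower, 3 of 11 macrophage and Kupffer cell markers (Cd5l, C1qc, Clec4f), 2 of 7 monocyte markers (S100a4, Plac8), 2 of 6 dendritic cell markers (Batf3, Itgax), 1 of 3 NK cell markers (Gzma), 3 of 4 cholangiocyte markers (Sox9, Krt7, Spp1), 1 of 8 endothelial markers (Lyve1) and 1 of 1 pancreas markers (Cela1) were higher. None of 7 neutrophil, 6 T cell, 1 B cell, 8 stellate cell, 2 platelet or 1 adipocyte markers passed, and 1 of 10 hepatocyte markers (Cps1) was lower. The mean centred log2 intensity of the monocyte markers was 1.38 to 2.92 in STAM-NON, 1.53 to 2.38 in STAM-INS and 0.26 to 1.01 in Normal. That of the macrophage markers was 2.96 to 3.79, 2.58 to 3.96 and 2.16 to 2.66. The neutrophil markers were at 4.30 in STAM-NON replicate 3 and at 0.17 to 2.12 on the other STAM arrays, against -0.23 to 0.07 in Normal. That array is the one that was the highest of STAM-NON in 12 of the 26 members. Of the lists, the T cell marker Trat1, the NK cell marker Klrk1, the adipocyte marker Lep and the pancreas markers Cpa1, Pnlip and Prss1 were on no array above background, and Itgax stands in both the dendritic cell and the adhesion list. The part of these cells in the differences of the members was not tested.

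**Figure D4:**
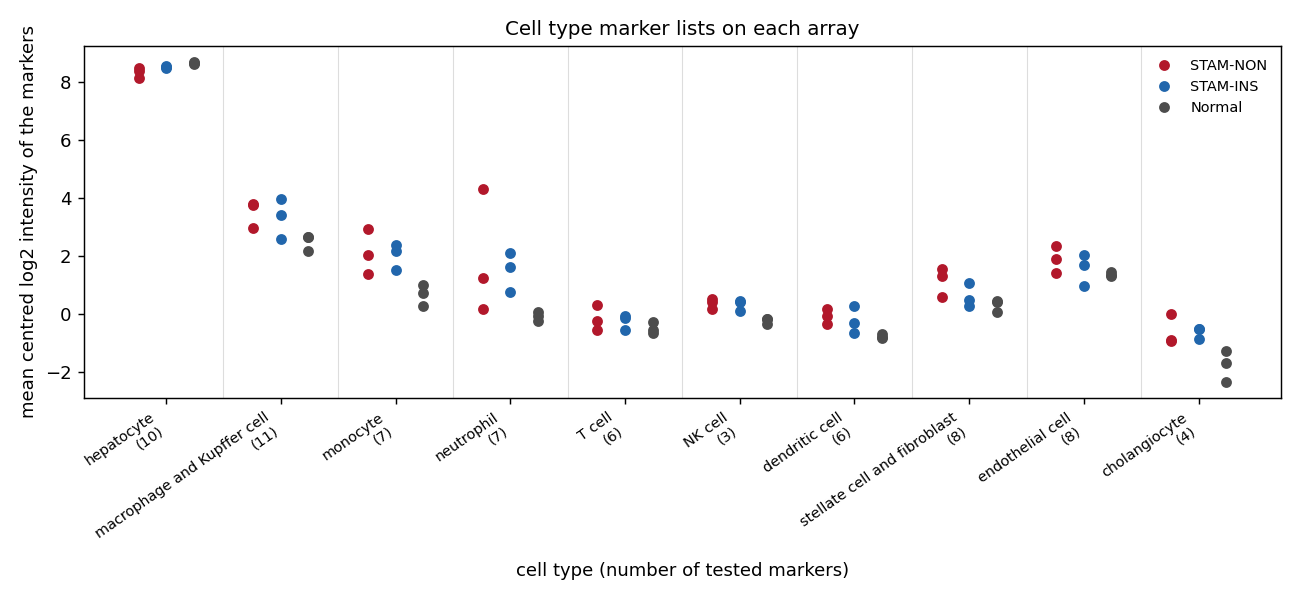
Points are the mean centred log2 intensity of the tested markers of a cell type on each array, with the number of markers under each name, for lists with 3 or more tested markers. The STAM points all lie above the Normal points for monocyte, neutrophil, NK cell, dendritic cell and cholangiocyte markers, narrowly for neutrophil and dendritic cell markers. The NK cell points rest on Gzma, with differences from Normal of 2.22 in STAM-NON and 2.09 in STAM-INS. Over the 3 NK cell markers the median difference was -0.07 and -0.21, with the markers other than Gzma below 0. Hepatocyte markers lie between 8.14 and 8.70 in all groups, and 1 STAM-NON array stands at 4.30 for neutrophil markers.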

How the data were processed

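Groups and replicate numbers came from the sample labels. Per the file headers, the authors deposited the output of Agilent Feature Extraction 11.5.1.1 for each array, with background-subtracted spot intensity (linear), median intensities of spot and local background, and flags, not normalised between arrays. RNA was labelled with Cy3. The labels name a FAVORGEN kit for RNA extraction and the methods a Qiagen kit. Deposited intensities were turned into log2 values minus the 75th percentile of the array's 59305 non-control spots. Outlier spots were dropped (12 probes had none left on some array), and spots of 1 probe were averaged. Testing required that a share of 0.5 or more of a probe's spots be well above background on all 3 arrays of some group, which left 26277 probes.

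Probes were named by accession through a RefSeq table of GRCm38.p6, for names only, since the array was designed on mm9. Comparisons used limma 3.58.1 under R 4.3.3 (lmFit, eBayes, two-sided, all 9 arrays, 6 residual degrees of freedom). Adjusted p-values are Benjamini-Hochberg values over the 26277 probes, with a threshold of 0.05. Where no array of a group saw a probe, the at-least fold divides the brighter mean by a dim-group mean in which each array enters at its lowest signal among detected probes or at the probe's own signal, whichever is larger. This fold takes no account of the spread between arrays. Values per array are given for genes past the threshold in any comparison, and for those over 2-fold without overlap between STAM-NON and Normal or between STAM-INS and STAM-NON. The remaining tested genes are given by role. The counts cover all members, but 1 member is not reported here. The members and all lists were chosen with earlier results of these data known. The fit was tested on simulated data. Alternatives covered background correction, scaling, the filter, the test, blocks and each array left out. The number of arrays, 3 per group, limits the precision.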

Additional observations from a re-analysis of the deposited data

How the results depend on the processing

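Of the 15 differences of single members past the threshold, none changed direction in the 382 values computed under alternatives, and 254 of those values stayed past it. Alternatives that change only the test or the threshold, or leave out an array of the third group, cannot move a difference. An unchanged direction under those says nothing about stability, and their share of the 382 values was not counted. No member passed between STAM-INS and STAM-NON under any alternative. Among chemokine and receptor genes, the 9 calls of STAM-NON against Normal became 0 with no filter on dim probes, 0 with the slide row as a block, 0 with the methods' t-test after adjustment, 1 without the 3 arrays with the most spots above background (chosen after seeing the data) and 2 to 16 with single arrays left out. The 6 calls of STAM-INS against Normal became 1 with no filter, 10 with trend and robust in eBayes, 2 with the slide row, 12 and 1 with the t-test before and after adjustment, and 1 to 9 with single arrays left out.

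Over all probes, STAM-NON against Normal had 4220 calls, and 250 with no filter, 2180 with only the groups compared in the fit, 15 with the slide row, 1641 when also over 2-fold, 7534 and 30 with the t-test before and after adjustment, 164 without the 3 arrays and 874 to 6184 with single arrays left out. STAM-INS against STAM-NON had 24 calls, and 7 with no filter, 6 with probes above background on all 9 arrays, 10 with probes above background on all Normal arrays (chosen after seeing the data), 8 with only the groups compared, 13 with the slide row, 1498 and 1 with the t-test and 10 to 57 with single arrays left out. STAM-INS against Normal had 3650 calls, and 2211 with E1A centring, 572 with no filter, 2157 with the slide row, 1503 when also over 2-fold, 8810 with the unadjusted t-test and 1172 to 4494 with single arrays left out. The cause of these changes was not tested. E1A centring moved the median of all probes from -0.13 to 0.18, from 0.03 to -0.12 and from -0.09 to 0.07 in the 3 comparisons.

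Same-numbered arrays had deviations that correlated with r from -0.288 to 0.149, so the numbers do not pair the mice. With a replicate block, calls were 2016, 6 and 1872 over all probes and 6, 0 and 5 among the members. No fit with the slide as a block was run. STAM-INS and STAM-NON lie on 1 slide, so a slide term has nothing to remove from their comparison and its 24 calls are those of the main fit. In the comparisons with Normal, slide and group coincide. Signal near background limits the 27 genes that were not tested.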
